A study of Mus musculus with 6 samples.

Results

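Calcium-binding proteins with EF-hand motifs carry much of the calcium signalling inside neurons, and 10 of their genes were followed in the contused mouse spinal cord: Pvalb, Calb1, Calb2, Necab1, Necab2, Hpca, Hpcal4, Vsnl1, Ncald and Cabp1. They were chosen with earlier results of these data known and taken by name, as the rows of the gene table with these symbols. All 10 were found among its 37475 genes. Each of them passed the filter on low counts, which left 22114 genes for testing. The comparison was between 3 wild-type mice given phosphate-buffered saline (PBS, labelled SCI) and 3 wild-type mice given syringin at 50 mg/kg (labelled SCI+Syr). All 6 mice had a contusion, a blunt impact that bruises the cord, at thoracic level T10, were injected into the peritoneum daily, and were sampled on day 3. Syringin is a phenylpropanoid glucoside found in plants. Both groups were injured and uninjured cord was not analysed here, so the values show a difference between treatments and not the effect of the injury. The sources used here give no strain, age or length of cord.

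An EF hand is a loop between a pair of helices that holds a calcium ion. Parvalbumin, calbindin and calretinin (Pvalb, Calb1, Calb2) are mainly buffers: they take up calcium after an action potential, and each marks particular classes of interneurons and sensory neurons in the cord and the sensory ganglia. Hippocalcin, its relative encoded by Hpcal4, visinin-like protein 1 and neurocalcin delta (Hpca, Hpcal4, Vsnl1, Ncald) are neuronal calcium sensors, which expose a fatty acid anchor and move to membranes when calcium rises. The NECAB proteins (Necab1, Necab2) carry an EF hand near the amino terminus and are abundant in dorsal horn and ganglion neurons. Cabp1 encodes a relative of calmodulin that modulates voltage-gated calcium channels and inositol trisphosphate receptors.

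The 6 libraries held between 65579117 and 78843034 deposited counts. Counts of 4 were 1.51 times as frequent as counts of 3 and 5 were on average, so 1 sequenced fragment may add about 4 counts and the number of fragments may be smaller than these totals. Markers of the labelled tissue were present in every library: the summed level of 12 neuronal markers ranged from 4040 to 5065 CPM (counts per 1e+06) under PBS and from 2149 to 3255 CPM under syringin, and that of 6 oligodendrocyte markers was at least 17872 CPM. Transcripts of sensory ganglia, which lie outside the cord, divided the libraries across the groups. For 12 ganglion markers together the level was 395.8, 57.3 and 60.9 CPM in PBS libraries 1, 2 and 3 and 333.0, 29.2 and 152.0 CPM in syringin libraries 1, 2 and 3. PBS library 1 and syringin libraries 1 and 3 thus held the most, so both treatments include libraries with many and with few.

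In the syringin group the 10 genes were lower in every library than in any PBS library. By edgeR's quasi-likelihood test, 5 of them fell at a Benjamini-Hochberg adjusted p under 0.05 (Vsnl1, Calb2, Hpca, Pvalb and Cabp1), none rose, and 5 did not pass. Over all genes tested, 5.01% passed, and 3.39% passed with a lower level under syringin. Because the 10 were chosen with earlier results known, the shares over all genes are given beside them as description only. Groups that did not overlap, with syringin lower, were seen for all 10 genes and for 15.3% of all genes tested. All 10 fold changes were negative, as were 49.1% of those of all genes. The median log2 fold change was -0.85 over the 10 genes and 0.01 over all genes. CPM are shares of a library. In this bulk tissue, fewer neurons, less RNA per neuron and more RNA from other cells cannot be told apart. Dropping PBS library 1, 2 or 3 left 0 of the 10 past the threshold, and of all genes tested 0.954%, 0.723% and 0.0% were then lower and passed. Dropping syringin library 1, 2 or 3 left 6, 4 and 1 of the 10, and 4.97%, 1.42% and 0.942% of all genes. DESeq2 called 7 of the 10 lower, where it called 8.13% of all genes lower, and edgeR with the replicate number as a block called 8, where it called 6.76% lower.

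**Figure D1:**
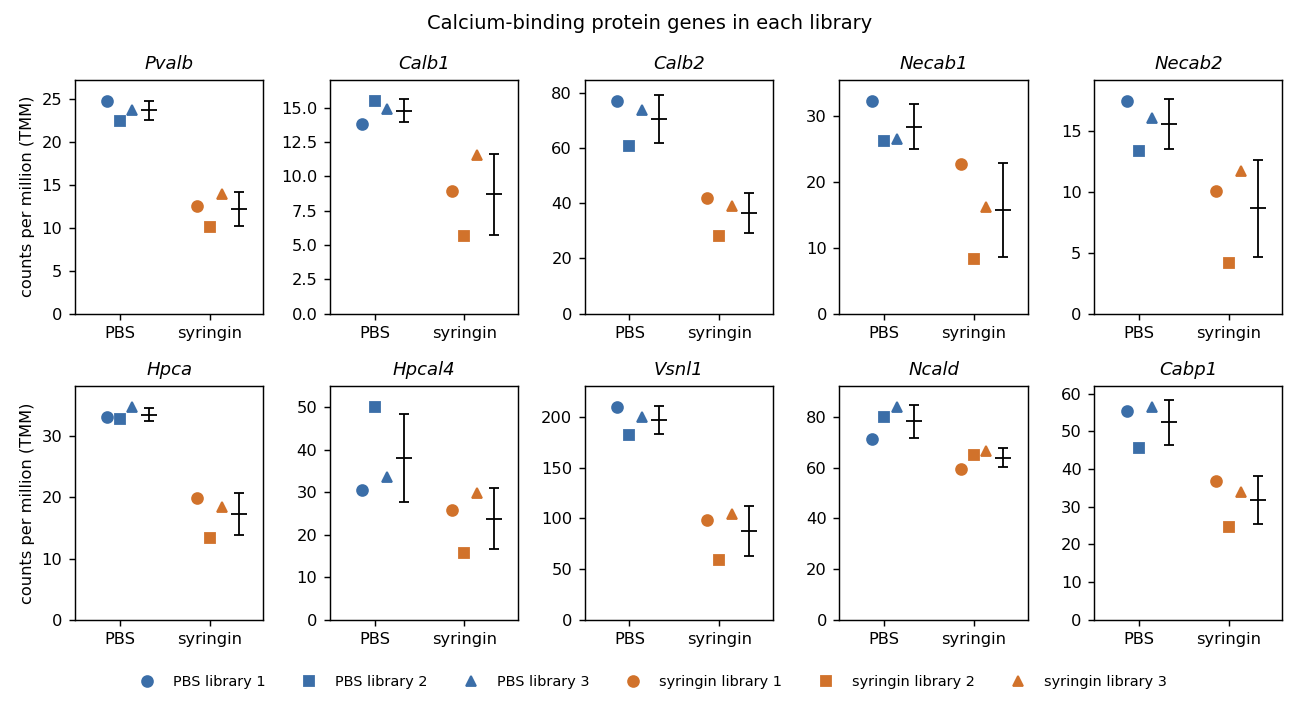
TMM-scaled CPM of the 10 genes in each of the 6 libraries (symbols by library, blue PBS and orange syringin), with the group mean and SD (n = 3) in black beside them. All syringin libraries lie below all PBS libraries in each panel, and syringin library 2 is the lowest in 9 of the 10, Ncald being the exception.

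Levels of different genes were compared per transcript length, as FPKM (fragments per kilobase of transcript and per 1e+06 mapped) in the authors' table. Vsnl1 had the highest level of the 10, at 93.5 ± 6.92 FPKM in the PBS libraries (mean ± SD, n = 3), followed by Calb2 at 37.6 ± 4.68, Pvalb at 21.1 ± 1.07 and Hpca at 10.6 ± 0.349 FPKM. The ranges of these 4 genes over the PBS libraries did not touch each other. Ncald and Cabp1 came next, at 8.47 ± 0.693 and 8.34 ± 0.976 FPKM, and their ranges overlapped. Necab2 at 6.93 ± 0.942, Hpcal4 at 6.60 ± 1.80 and Necab1 at 5.01 ± 0.614 FPKM overlapped with 1 or more neighbours in that order. Calb1 was the lowest, from 2.65 to 2.96 FPKM under PBS and from 1.04 to 2.15 FPKM under syringin. In the syringin group the first 3 places were the same, and Ncald, at 6.77 ± 0.265 FPKM, had a higher mean than Hpca, at 5.39 ± 1.18 FPKM, with a range of 6.50 to 7.03 against 4.09 to 6.39 FPKM.

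**Figure D2:**
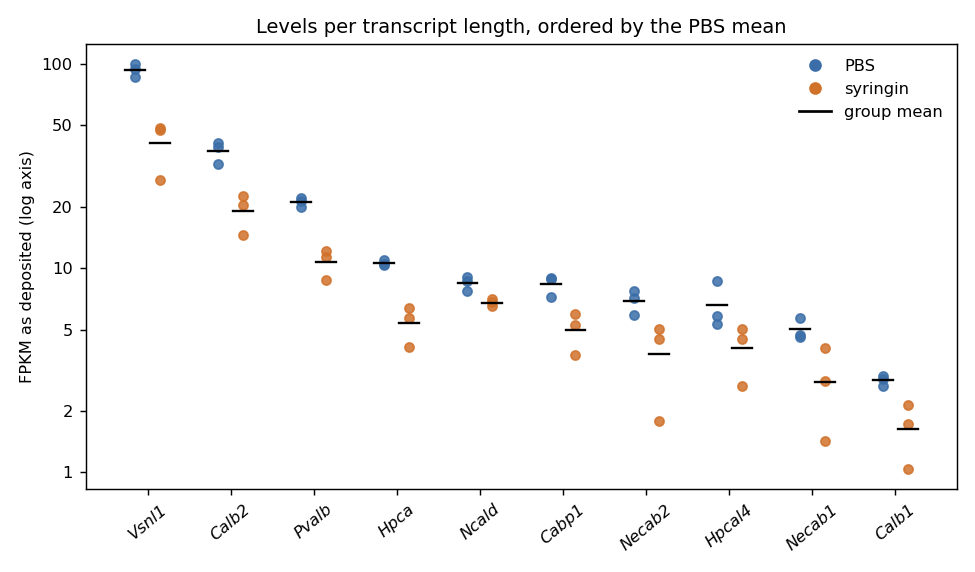
FPKM as deposited, on a log axis, of the 10 genes in the order of their PBS mean; each dot is a library and each bar a group mean. Vsnl1 lies above the other 9 genes in both groups, and the groups of each gene do not overlap.

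Among the buffers, Calb2, which encodes calretinin (ENSMUSG00000003657, chromosome 8, 110137502 to 110168210 on the minus strand of GRCm38), was at 77.1, 60.8 and 73.9 CPM in PBS libraries 1 to 3 and at 41.9, 28.2 and 39.1 CPM in syringin libraries 1 to 3. The lowest PBS library was 1.45 times the highest syringin library. Calb2 fell by a log2 fold change of -0.96 ± 0.16 (SE, n = 3 in each group; adjusted p = 0.0236 by edgeR), to 51.5% of its PBS mean. Pvalb, the parvalbumin gene (ENSMUSG00000005716, chromosome 15, 78191114 to 78206400, minus strand), was at 24.8, 22.5 and 23.8 CPM with PBS and at 12.5, 10.1 and 14.0 CPM with syringin. Its PBS libraries varied little, with a coefficient of variation of 4.76%, and the gap between the groups was larger than either group's spread. Pvalb fell by a log2 fold change of -0.95 ± 0.14 (adjusted p = 0.0188 by edgeR), which placed it at rank 185 by p among all genes tested, ahead of the other 9.

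Calb1, which encodes calbindin (ENSMUSG00000028222, chromosome 4, 15881264 to 15908064, plus strand), was at 13.8, 15.5 and 14.9 CPM with PBS and at 8.91, 5.65 and 11.6 CPM with syringin. Its groups did not overlap, but the syringin libraries were spread more widely (coefficient of variation 33.9% against 5.86%). Its log2 fold change was -0.76 ± 0.24 and did not pass (adjusted p = 0.111 by edgeR). The FPKM ratio of Calb2 to Calb1 took values of 15.5, 10.9 and 13.8 under PBS and of 13.1, 13.9 and 9.43 under syringin. These ratios overlapped, and a difference in response between both genes was not detectable (log2 difference of -0.15, exact permutation p = 0.60, two-sided, adjusted p = 0.75 over 5 pairs).

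Parvalbumin is also made by fast skeletal muscle and by proprioceptive neurons of the ganglia, so the markers of both were read beside Pvalb. The summed level of the 7 muscle markers tested (of 9) came to 3.71, 7.77 and 4.32 CPM under PBS and to 3.53, 3.23 and 2.35 CPM under syringin. These low sums were lower in every syringin library than in any PBS library, by a small margin. None of the 7 markers passed, and 6 of them had negative fold changes. The myosin gene Myh4 of fast fibres was at 10, 43 and 0 counts with PBS and at 0, 0 and 4 counts with syringin, and did not reach the filter. Among libraries with many ganglion transcripts, Pvalb was at 24.8 CPM in PBS library 1 and at 12.5 and 14.0 CPM in syringin libraries 1 and 3. Among those with few, it was at 22.5 and 23.8 CPM in PBS libraries 2 and 3 and at 10.1 CPM in syringin library 2. The log2 fold change of Pvalb was -0.90 within the first set and -1.19 within the second, given as sizes only since each set has 1 library in a group. The part of muscle or ganglion transcripts in the Pvalb difference was not tested. Of 4 markers of proprioceptive neurons, Ntrk3 and Whrn fell (log2 fold change -0.62 and -0.87), and Runx3 and Etv1 did not pass (0.97 and 0.17). None of these 4 genes is specific to such neurons.

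The NECAB genes had the widest spread of the 10 under syringin. Necab1 (ENSMUSG00000040536, chromosome 4, 14952245 to 15149794, minus strand) was at 32.2, 26.1 and 26.5 CPM with PBS and at 22.7, 8.35 and 16.2 CPM with syringin. Necab2 (ENSMUSG00000031837, chromosome 8, 119446719 to 119472640, plus strand) was at 17.5, 13.4 and 16.1 CPM with PBS and at 10.1, 4.18 and 11.7 CPM with syringin. In both genes syringin library 2 stood far below the other 5 libraries, and the coefficient of variation in the syringin group was 45.6% and 45.8%. The log2 fold changes were -0.85 ± 0.31 for Necab1 (adjusted p = 0.156 by edgeR) and -0.85 ± 0.34 for Necab2 (adjusted p = 0.18). Without syringin library 2 they were -0.54 and -0.52. The FPKM ratio of Necab1 to Necab2 was 0.738, 0.781 and 0.661 with PBS and ranged more widely with syringin, at 0.898, 0.793 and 0.552 (log2 difference 0.02, exact permutation p = 0.90). Necab1 shares 7.83% of its exonic bases with an antisense gene, and the sources used here do not say whether counting used strand.

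Necab3, the remaining gene of the NECAB family, which was not among the 10, fell by a log2 fold change of -1.52 ± 0.22 (adjusted p = 0.0181 by edgeR), from 20.9 ± 3.96 to 7.26 ± 1.76 CPM (mean ± SD, n = 3).

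Among the neuronal calcium sensors, Vsnl1 (ENSMUSG00000054459, chromosome 12, 11325242 to 11436613, minus strand) had both the highest level and the largest difference of the 10. It was at 209.6, 181.8 and 199.8 CPM with PBS and at 98.8, 59.2 and 104.4 CPM with syringin. The lowest PBS library was 1.74 times the highest syringin library, the widest such gap among the 10 genes. Vsnl1 fell by a log2 fold change of -1.17 ± 0.20 (adjusted p = 0.0236 by edgeR), to 44.4% of its PBS mean. Hpca (ENSMUSG00000028785, chromosome 4, 129111570 to 129122036, minus strand) was at 33.1, 32.7 and 34.7 CPM with PBS, a coefficient of variation of 3.14%, and at 19.9, 13.4 and 18.4 CPM with syringin. Hpca fell by a log2 fold change of -0.96 ± 0.15 (adjusted p = 0.0207 by edgeR).

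Hpcal4 and Ncald, sensors of the same family, did not pass. Hpcal4 (ENSMUSG00000046093, chromosome 4, 123183227 to 123194701, plus strand) was at 30.6, 50.0 and 33.5 CPM with PBS and at 25.8, 15.8 and 29.8 CPM with syringin. PBS library 2 stood above the other 5 libraries, and the lowest PBS library was only 1.03 times the highest syringin library. The log2 fold change of Hpcal4 was -0.68 ± 0.26 (adjusted p = 0.171 by edgeR), and -0.43 without PBS library 2. Ncald (ENSMUSG00000051359, chromosome 15, 37366175 to 37792570, minus strand) was at 71.2, 80.0 and 83.8 CPM with PBS and at 59.5, 65.1 and 66.7 CPM with syringin. It had the smallest difference of the 10, a log2 fold change of -0.30 ± 0.09 (adjusted p = 0.112 by edgeR), and was the only one whose lowest value lay in syringin library 1 and not in syringin library 2.

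The FPKM ratio of Vsnl1 to Ncald took values of 12.9, 9.98 and 10.5 under PBS and of 7.30, 3.99 and 6.87 under syringin, with no overlap. The log2 difference of -0.92 had an exact permutation p of 0.10, the smallest that 3 against 3 libraries allow, so this test could not call the unequal response of Vsnl1 and Ncald (adjusted p = 0.5 over 5 pairs). For Hpca against Hpcal4 the ratios overlapped, at 1.98, 1.19 and 1.89 with PBS and 1.41, 1.54 and 1.12 with syringin (log2 difference -0.29, exact permutation p = 0.30). For Vsnl1 against Hpca the log2 difference was -0.23 (exact permutation p = 0.20). Hpca shares 1.95% of its exonic bases with Tmem54 on the other strand, and Ncald 4.04% with an antisense gene and 3.33% with a transcript on its own strand.

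Cabp1 (ENSMUSG00000029544, chromosome 5, 115168689 to 115194381, minus strand) was at 55.4, 45.5 and 56.4 CPM with PBS and at 36.9, 24.5 and 33.8 CPM with syringin. The groups were apart by a factor of 1.23 between the nearest libraries. Cabp1 fell by a log2 fold change of -0.72 ± 0.16 and passed narrowly (adjusted p = 0.0476 by edgeR). With no composition factors, and after a correction for transcript length and GC content, the adjusted p was 0.0514 in both fits.

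The sequences before the start sites are given for Vsnl1, Cabp1 and Pvalb, genes that fell and have an entry in the RefSeq promoter table (GRCm38.p6). Calb2, Calb1, Necab1 and Ncald have no entry in it, and the window of Hpca lies within its own gene model. Each line holds bases before the most upstream start listed, 5′ to 3′ on the gene's strand, and capitals mark GC boxes (GGGCGG on either strand), the binding motif of Sp1-type factors. The stretches are chr12:11436614-11436828 for Vsnl1, chr5:115194382-115194631 for Cabp1 and chr15:78206401-78206650 for Pvalb, all on the minus strand; for Vsnl1, 35 bases next to the RefSeq start that GENCODE places in its first exon were left out. Which start was used in these libraries cannot be read from counts per gene.
Vsnl1: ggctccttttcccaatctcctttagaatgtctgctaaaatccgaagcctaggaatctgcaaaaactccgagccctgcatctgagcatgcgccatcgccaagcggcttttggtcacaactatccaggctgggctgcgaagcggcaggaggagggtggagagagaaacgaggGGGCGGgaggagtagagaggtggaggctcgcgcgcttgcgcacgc
Cabp1: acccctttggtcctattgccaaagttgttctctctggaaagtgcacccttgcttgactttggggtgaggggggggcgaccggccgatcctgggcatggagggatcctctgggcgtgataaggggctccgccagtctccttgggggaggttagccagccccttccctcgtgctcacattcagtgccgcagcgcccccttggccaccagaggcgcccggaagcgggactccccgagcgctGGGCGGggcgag
Pvalb: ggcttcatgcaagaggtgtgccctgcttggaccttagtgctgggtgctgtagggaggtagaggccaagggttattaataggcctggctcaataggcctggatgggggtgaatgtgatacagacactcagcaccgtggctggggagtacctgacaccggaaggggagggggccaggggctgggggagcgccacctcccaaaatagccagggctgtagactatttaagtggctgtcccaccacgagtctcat

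One GC box lay in each of the stretches of Vsnl1 and Cabp1 and none in that of Pvalb. Over the 11 windows of 250 bases of the 6 genes with an entry, 5 held a GC box, against 32.7% of 32851 windows of the same length over all genes. None of the 11 held a TATA box spelled TATAAA (12.4% of all windows) or the cAMP response element TGACGTCA (1.55%). The left part of the element bound by the neuronal repressor REST, CAGCACC, was in 1 window, that of Pvalb printed above (5.73% of all windows), and the right part, GGACAG, in 3 (18.7%). These matches describe the letters in these windows only.

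The levels were also read relative to the mean of 12 general neuronal markers, because all 12 had negative fold changes in the same libraries. Of these 12 markers 6 fell, where 3.39% of all genes tested did, and their median log2 fold change was -0.76. They ran from -1.06 (Nefl) and -1.0 (Rbfox3) to -0.11 (Tubb3) and -0.08 (Elavl3), so differences from their mean depend on the markers chosen. Each gene's log2 CPM minus the mean log2 CPM of these 12 markers was taken per library. Within each group Tubb3 was highest in the libraries with many ganglion transcripts. It was at 519.6, 312.8 and 303.4 CPM under PBS and at 425.7, 246.7 and 381.9 CPM under syringin. Elavl3 was lowest in PBS library 1 among the PBS libraries (124.2, 134.0 and 135.4 CPM). The part of ganglion transcripts in this scale was not tested. On this scale Vsnl1 stood at -0.39, -0.29 and -0.30 under PBS and at -0.94, -0.97 and -0.62 under syringin, a difference of -0.52 between the group means with no overlap. Hpca, Calb2 and Pvalb differed by -0.28, -0.27 and -0.27, also with no overlap between the groups. The gap was narrow for Hpca and Pvalb. The nearest PBS and syringin values were -3.05 and -3.11 for Hpca, -1.87 and -2.03 for Calb2 and -3.47 and -3.51 for Pvalb. Over all genes tested, 1.5% were lower on this scale with no overlap, against 15.3% on the CPM scale. The marker mean itself was lower under syringin (8.11, 7.79 and 7.94 log2 CPM under PBS, and 7.57, 6.86 and 7.32 under syringin). Subtracting it raises every gene under syringin relative to PBS, so the 1.5% is no measure of how often neuronal genes would be lower. For each of these 4 genes the exact permutation p was 0.10, the smallest this test can give with 3 against 3 libraries (adjusted p = 0.25 over the 10 genes). Necab1, Necab2, Calb1 and Cabp1 had differences of -0.26, -0.28, -0.12 and -0.04, and Hpcal4 of 0.00, with overlapping groups. Ncald had the opposite sign, at -1.95, -1.47 and -1.55 under PBS and -1.67, -0.83 and -1.26 under syringin, a difference of 0.40 with overlap (exact permutation p = 0.30).

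**Figure D3:**
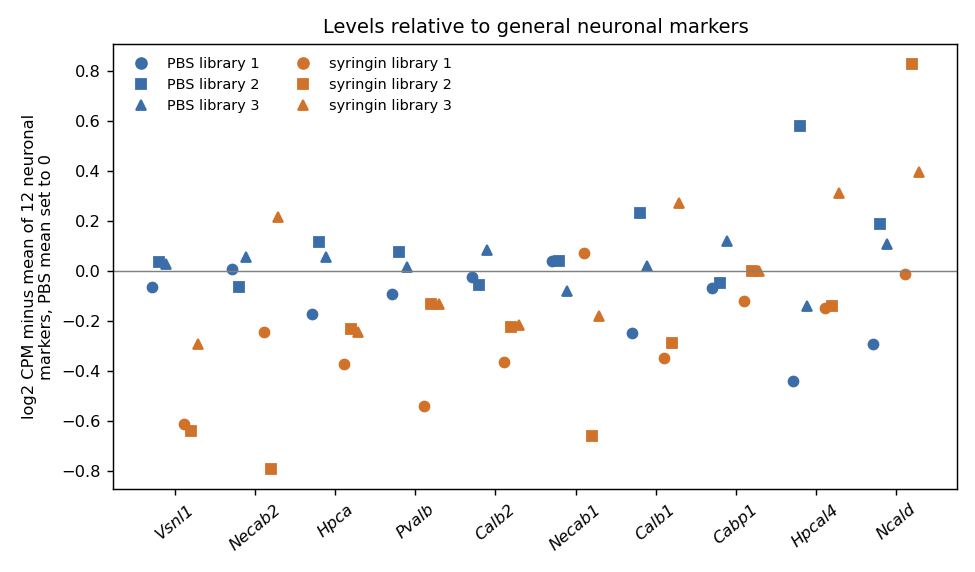
Log2 CPM of each gene minus the mean log2 CPM of 12 neuronal markers, per library, with the PBS mean of each gene set to 0; genes are ordered by the difference between the groups. The syringin libraries lie below the PBS libraries without overlap for Vsnl1, Hpca, Calb2 and Pvalb, and Ncald is the only gene with a positive difference.

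Markers of several other cell types differed between the same libraries. Of 5 inhibitory neuron markers 2 fell, the vesicular transporter gene Slc32a1 and the glycine transporter gene Slc6a5. Of 5 motor neuron markers 3 fell, and of 8 markers of infiltrating macrophages 5 rose (3.39% of all genes tested fell and 1.62% rose). None of 3 excitatory neuron markers passed. Slc17a6 had a log2 fold change of -0.84, and Slc17a7 and Slc17a8, both of low level, had 0.90 and 0.19. The 6 oligodendrocyte markers did not pass either (median 0.07). The macrophage markers summed to between 1103 and 1402 CPM under PBS and between 2130 and 3335 CPM under syringin, and the highest value was in syringin library 2, where 9 of the 10 genes were lowest. The 6 astrocyte markers summed to 6944 to 8354 CPM with PBS and 4619 to 6347 CPM with syringin. All 6 had negative fold changes (median -0.55), and 2 fell, Slc1a2 (-1.0) and Gjb6 (-1.17). The 5 Schwann cell markers, all with negative fold changes (1 fell, median -2.06), summed to 338.7, 1396.5 and 1024.6 CPM with PBS and to 137.4, 298.0 and 122.0 CPM with syringin. The 5 microglia markers also had negative fold changes (none passed, median -0.67). The part of these differences in the lower levels of the calcium-binding protein genes was not tested. With the mean of the ganglion markers as a covariate, 7 of the 10 genes fell, Necab1 and Necab2 being added (6.49% of all genes were lower and passed in that fit).

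Genes that work with the 10 were taken from lists chosen with earlier results of these data known. Over all genes tested, 3.39% fell. Of 9 other neuronal calcium sensors 7 were tested and 1 fell: Ncs1, which encodes neuronal calcium sensor 1, went from 169.1 ± 11.2 to 96.9 ± 17.3 CPM (log2 fold change -0.80 ± 0.14, adjusted p = 0.0236 by edgeR). Hpcal1, a close relative of Hpca, was at 54.9 ± 7.54 and 51.5 ± 3.16 CPM (log2 fold change -0.09 ± 0.12). The potassium channel interacting protein gene Kcnip3 had a log2 fold change of -0.25 ± 0.13 and did not pass. The retinal sensor genes Rcvrn and Guca1a did not reach the filter.

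Of the calmodulins and other calmodulin-like or EF-hand genes 8 of 12 were tested, 4 fell and none rose, where 3.39% of all genes tested fell. Caln1, which encodes a calmodulin-like protein of neurons, fell by a log2 fold change of -1.71 ± 0.22, from 78.1 ± 15.4 to 23.9 ± 6.80 CPM, and Cabp7, a relative of Cabp1, by -1.24 ± 0.14. The calmodulin gene Calm3 fell from 743.7 ± 18.6 to 530.1 ± 29.4 CPM (-0.49 ± 0.09, adjusted p = 0.0286 by edgeR). The calmodulin genes encode the same protein and have many processed copies in the genome, so reads may be shared between them. Cabp7 shares 12.9% of its exonic bases with Zmat5 on the other strand.

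Among the kinases and the phosphatase that calmodulin switches on, 6 of 14 fell and none rose (median log2 fold change -0.53). Over all genes tested, 3.39% fell. Camk2b, a subunit of calcium/calmodulin-dependent kinase II, fell by a log2 fold change of -1.04 ± 0.15, Camk2g by -0.74 ± 0.11, Camkk1 by -1.06 ± 0.13, Camk1g by -1.08 ± 0.23 and Camk1d by -0.72 ± 0.16. The calcineurin regulatory subunit gene Ppp3r1 fell by -0.44 ± 0.09, while the catalytic subunit gene Ppp3ca was at -0.29 ± 0.13 and did not pass. Exons of Ppp3r1 overlap those of a neighbour on the same strand over 14.3% of their bases. Of 4 genes for small calmodulin-binding proteins, Pcp4 (-1.06 ± 0.23) and Pcp4l1 (-0.62 ± 0.13) fell, and Gap43, a protein of growing axons, was at 0.20 ± 0.18. Pcp4 shares 23.7% of its exonic bases with Igsf5 on the same strand.

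Where 3.39% of all genes tested fell, 3 of 9 calcium pumps and exchangers fell and none rose. They were Atp2b2 and Atp2b3, plasma membrane calcium pumps of neurons (-1.24 ± 0.14 and -1.36 ± 0.28), and the sodium/calcium exchanger gene Slc8a3 (-0.66 ± 0.14). Atp2b1, the widely expressed plasma membrane pump, was at 150.4 ± 3.33 and 151.8 ± 20.5 CPM (0.01 ± 0.11), and Atp2a2, the pump of the endoplasmic reticulum, had a log2 fold change of -0.24 ± 0.10. The S100 genes, EF-hand proteins made largely by glia and immune cells, had another direction: 2 of 10 rose and none fell, where 1.62% of all genes tested rose, and their median log2 fold change was 0.24. S100a11 rose by 0.66 ± 0.12 (adjusted p = 0.026 by edgeR) and S100a4 by 0.71 ± 0.12 (adjusted p = 0.0247), but 51.7% of the exonic bases of S100a4 are shared with an overlapping gene on its strand. S100b, the S100 gene with the highest CPM of the list and a product of astrocytes and oligodendrocyte lineage cells, was at 395.7 ± 15.1 and 364.1 ± 63.4 CPM (-0.12 ± 0.13). S100a16 was at 0.33 ± 0.13 and did not pass.

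**Figure D4:**
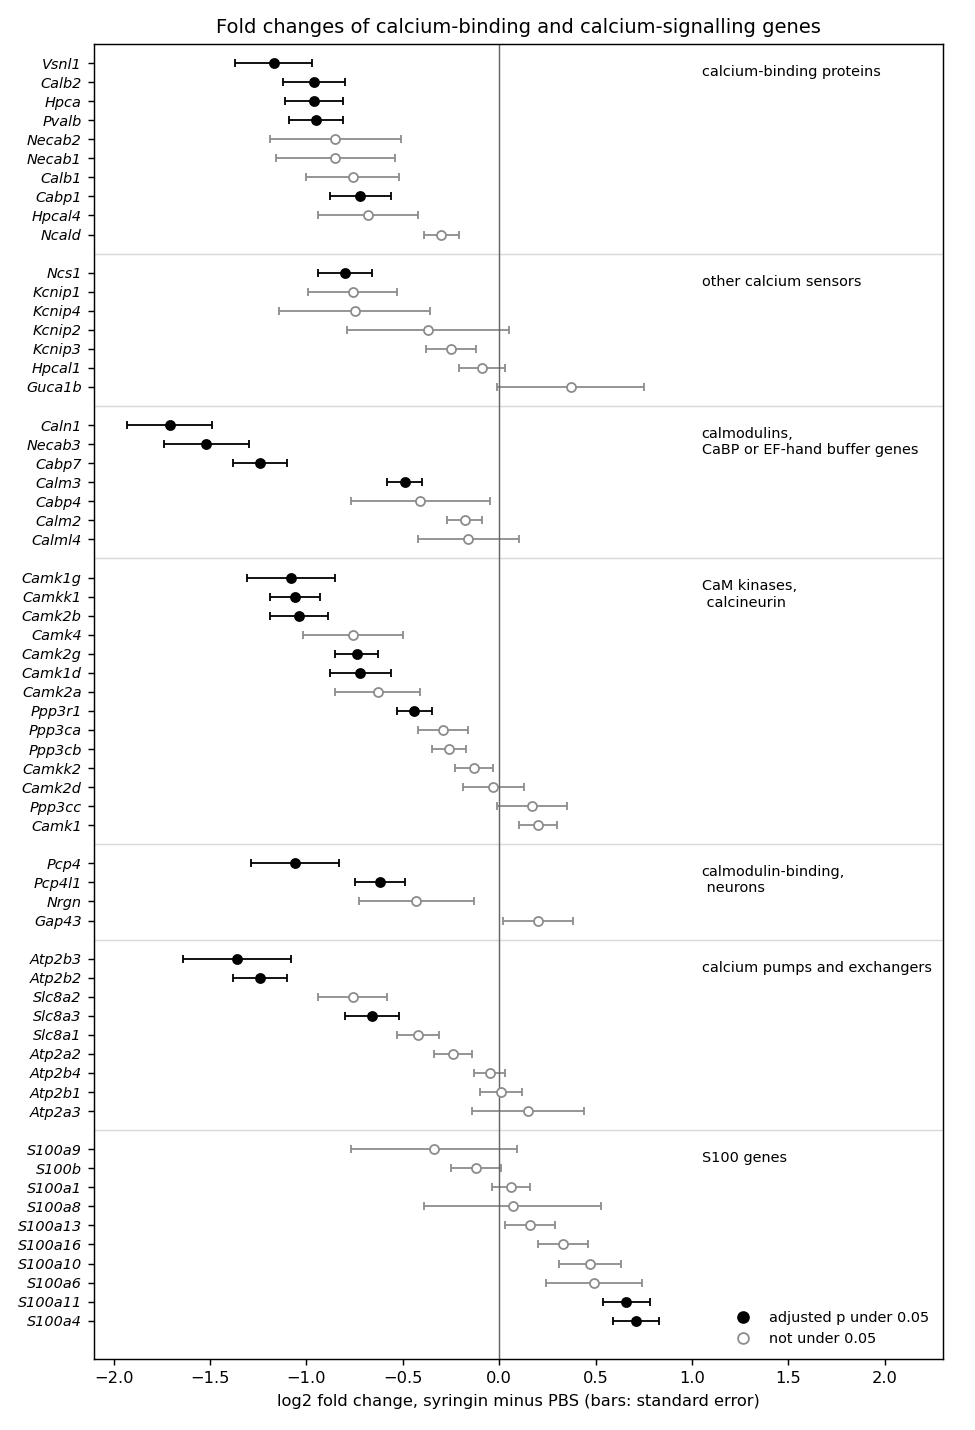
Log2 fold changes, syringin minus PBS, with standard errors, of the 10 calcium-binding protein genes and of the tested genes of 6 related lists, less 1 gene not reported here (n = 3 libraries in each group). Filled points passed an adjusted p of 0.05; all filled points outside the S100 list are negative, and both filled points in it are positive.

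With each library left out in turn, the fold changes of the 10 genes kept their sign, which groups that do not overlap largely fix beforehand. Leaving out syringin library 2 brought the fold change nearest to 0 in 8 of the 10 genes. Vsnl1 then had -0.95 (adjusted p = 0.0275 by edgeR), Pvalb -0.84 (0.0303), Calb2 -0.80 (0.0361) and Hpca -0.80 (0.0285), so these 4 still passed, while Cabp1 at -0.57 did not (0.0734). Without PBS library 3 their fold changes hardly moved, at -1.16, -0.95, -0.92 and -0.93, but the adjusted p rose to 0.137, 0.124, 0.138 and 0.13, and no gene of the whole table passed. In that fit 3449 genes had an unadjusted p under 0.05, among them 8 of the 10.

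**Figure D5:**
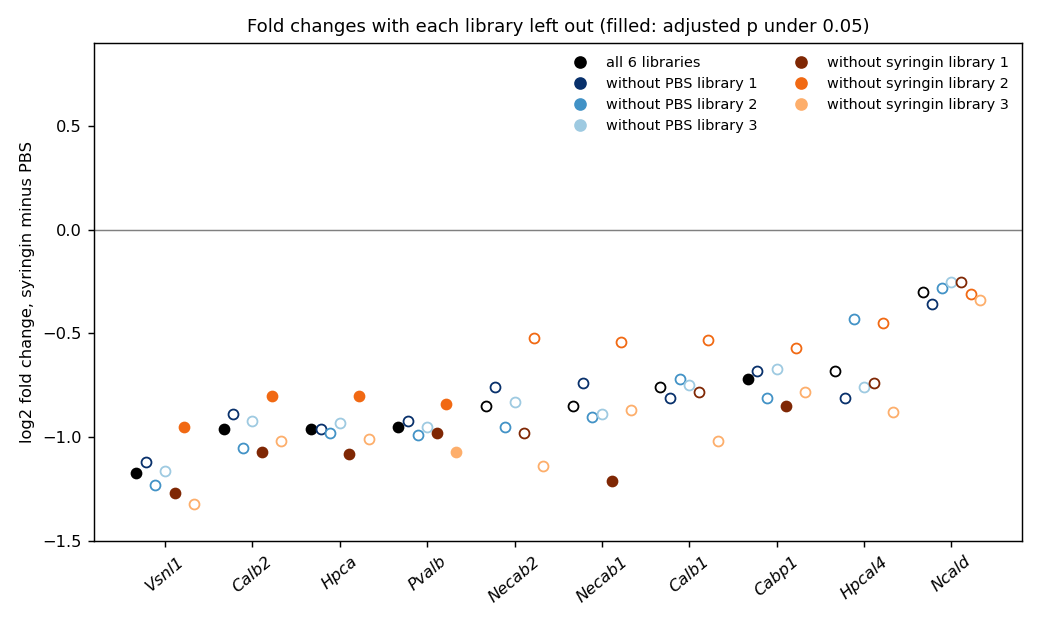
Log2 fold changes of the 10 genes from all 6 libraries and with each library left out in turn; filled points passed an adjusted p of 0.05. The points of Vsnl1, Calb2, Hpca and Pvalb stay at or below -0.80, and none is filled when a PBS library is left out.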

How the data were processed

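Polyadenylated RNA of spinal cord was sequenced in 6 libraries, 3 per treatment, which were grouped by the treatment each label names. HISAT2, StringTie, GRCm38 and mm10 appear in the submitters' processing notes without versions or roles. The authors deposited 1 table that gives, for every gene and library, an estimated count and an FPKM value. All deposited estimated counts were whole numbers. Libraries were made with a stranded kit, per the labels' protocols; the sources used here do not say how reads were counted. Nothing in the labels says that the 3 samples of a group were handled separately, so p-values measure the spread between these samples.

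Counts were scaled by TMM, filtered with filterByExpr (minimum count 10, minimum total 15) and fitted across all 22114 remaining genes with edgeR 4.0.16's robust quasi-likelihood model (R 4.3.3), with no term beside treatment. A call needed a two-sided Benjamini-Hochberg adjusted p under 0.05. CPM are counts per 1e+06 after TMM scaling; a standard error is the size of the log2 fold change divided by the root of F. The common biological coefficient of variation was 24.9%. FPKM was used as the authors deposited it, for levels and ratios between genes. No 2 libraries held identical counts.

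Other settings were DESeq2 1.42.0, limma 3.58.1 (voom, and log2 of FPKM plus 0.1 or 1), other scalings and filters, counts divided by 4, the replicate number as a block, the ganglion markers as a covariate and each library left out. A correction for length and GC content (96.7% of genes tested have both), fits within libraries of few or many ganglion transcripts and the scale relative to neuronal markers were chosen after the data were seen. The 10 genes, the lists and the other settings were chosen with earlier results of these data known. Named genes are the 10, those of the related lists that passed, the 2 of highest mean CPM in each list (1 gene is not reported here) and, for each of the 10, the 2 genes of most similar profile; Hpcal1 and the markers of other cell types were named after their values were seen. Positions and overlaps are from GENCODE M21 (GRCm38), whose coordinates differ from those in the deposited table.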

Additional observations from a re-analysis of the deposited data

How the results depend on the processing

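All fold changes of the 10 genes were negative in each of 22 other fits. The 5 genes that fell also did so with RLE or upper-quartile factors, without robust estimation, with either other filter, with counts divided by 4 and with limma-voom. Of these 5, Cabp1 alone missed the threshold in 4 fits, and 4 of the 10 then passed. The fits were those with no composition factors, limma on FPKM plus 0.1 or plus 1, and the length and GC correction. Of the 22114 genes tested, 739, 531, 575 and 611 were lower and passed in these fits, in that order. Over all genes, 1108 passed (32.4% of them higher), 3188 with DESeq2 (43.6% higher), 1281 after the length and GC correction (52.3% higher) and 2594 with the ganglion covariate (44.7% higher). DESeq2 called 7 of the 10, adding Calb1 and Necab1. Leaving out each library gave 0 to 1944 genes and 0 to 6 of the 10. Same-numbered libraries of both groups had deviations from their group means that correlated at 0.292, 0.123 and 0.052. For libraries of different numbers the values ran from -0.229 to 0.135, the highest being that of PBS library 3 and syringin library 2. These values do not settle whether the numbers pair the animals, and the main fit did not pair them. With the replicate block 2557 genes and 8 of the 10 passed, Necab1, Necab2 and Ncald being added. Within the 3 libraries with few ganglion transcripts 3820 genes and 9 of the 10 passed, but the only syringin library there is library 2, the lowest for 9 of the 10, so the spread under syringin is assumed and not measured, and within the 3 with many 0 genes and 0 of the 10 passed (1693 genes had an unadjusted p under 0.05). The fold change of Hpcal4 was -1.40 and -0.14 in these sets, that of Vsnl1 -1.69 and -1.04. With 3 libraries a group, the exact permutation test used for differences between genes in their response cannot go below 0.10.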

Other observations

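For each of the 10 genes the most similar profiles were sought among the 14708 genes compared, by Pearson's r of log2 CPM over the 6 libraries, as a description. The 6 libraries share the treatment contrast, and many genes had like profiles: 502 genes had r above 0.95 with Pvalb and 560 with Vsnl1. A high r does not mean a fall of the same size, so log2 fold changes are given in brackets. Pvalb was nearest to Kcnj3, an inwardly rectifying potassium channel gene (r = 0.9990, -0.97), and to Fam131a (r = 0.9990, -0.37). Calb2 was nearest to Jph3, a junctophilin of neurons (r = 0.9989, -1.13), and to Wnk2 (-0.89). Hpca was nearest to Rab11fip3 (-0.33) and Resp18 (-0.76), and Vsnl1 to Scai (-0.46) and Rell2 (-1.05). Cabp1 was nearest to Mapk8ip3 (-0.36) and Crtac1 (-0.51). Calb1 was nearest to Hap1, the gene of huntingtin-associated protein 1 (-0.59), and to Camkv (-0.84). Necab1 was nearest to the sodium channel gene Scn3a (-0.39) and to Map3k13 (-0.51), and Necab2 to Begain (-0.56) and Dennd6b (-0.44). Ncald was nearest to the metabotropic glutamate receptor gene Grm3 (r = 0.9970, -0.87) and to Rab11fip4 (-0.72). Hpcal4 had the fewest like profiles of the 10, with 32 genes at r above 0.95, and Ncald had 117. The nearest to Hpcal4 were Depdc5 (-0.06) and Ramacl (-0.33). Among the 10 genes themselves, the lowest r over the 6 libraries was 0.46, between Necab1 and Ncald.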
